A study of Homo sapiens with 40 samples.

Results

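Plasma cell secretory markers were followed as 6 genes, JCHAIN, MZB1, SDC1, DERL3, TENT5C and FKBP11, in mantle cell lymphoma lines given a BET bromodomain inhibitor. The members were every probe annotated to these genes, including the older names IGJ for JCHAIN and FAM46C for TENT5C, and they came to 10 of the 47231 probes on the array. Of these, 9 probes passed the detection filter, so that all 6 genes were among the 13746 genes tested. The genes were taken by name, with no threshold on signal. The study hybridised total RNA from 4 established human lines, GRANTA519, JEKO1, MAVER1 and REC1, each cultured with DMSO, the solvent control, or with OTX015, which displaces BET proteins from acetylated chromatin. Sampling took place after 2, 4, 8, 12 and 24 h, and every combination of line, treatment and time has 1 array, which gives 10 groups of 4 lines and 20 pairs of an OTX015 and a DMSO array. The sources used here state neither the dose nor which cultures the arrays of a line came from, so the lines served as replicates. Each line is a single tumour-derived culture and a model of lymphoma B cells, not of plasma cells.

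Plasma cells are the end stage of the B lineage and are built for secretion: antibody chains enter the endoplasmic reticulum (ER), are folded and joined there, and leave through the Golgi apparatus. JCHAIN links IgM and IgA units into polymers, MZB1 is an ER protein that assists antibody assembly and calcium handling in B cells, and FKBP11 is an ER-membrane peptidyl-prolyl isomerase of secretory cells. DERL3 belongs to the derlins, which help move misfolded proteins out of the ER for degradation. SDC1 is syndecan-1 (CD138), the heparan sulfate proteoglycan by which plasma cells are usually recognised. TENT5C is a poly(A) polymerase that lengthens the tails of mRNAs for secreted proteins and is often mutated in myeloma.

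The stretches upstream of the start sites of 4 members are shown because these genes fell or rose in the comparisons that follow. They are the 250 bases before the RefSeq start on GRCh38.p14, 5′ to 3′ on the strand of the gene, and capitals mark 4 short motifs on either strand, namely CCACG (part of the ER stress element), the E-box CACGTG, the octamer core TGCAAAT and the CCAAT box. MZB1 lies at chr5:139389914-139390163 on the minus strand, FKBP11 at chr12:48925493-48925742 on the minus strand, JCHAIN at chr4:70666509-70666758 on the minus strand and TENT5C at chr1:117605798-117606047 on the plus strand.
MZB1: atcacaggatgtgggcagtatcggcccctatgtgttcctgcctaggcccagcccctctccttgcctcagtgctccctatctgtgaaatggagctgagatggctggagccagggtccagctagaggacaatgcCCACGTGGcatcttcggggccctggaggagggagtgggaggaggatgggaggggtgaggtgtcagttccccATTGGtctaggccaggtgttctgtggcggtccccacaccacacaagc
FKBP11: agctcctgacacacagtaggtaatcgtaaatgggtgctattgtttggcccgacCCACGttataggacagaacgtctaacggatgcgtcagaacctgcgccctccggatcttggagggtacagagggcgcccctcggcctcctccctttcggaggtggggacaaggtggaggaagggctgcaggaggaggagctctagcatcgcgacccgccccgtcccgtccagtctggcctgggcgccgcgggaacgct
JCHAIN: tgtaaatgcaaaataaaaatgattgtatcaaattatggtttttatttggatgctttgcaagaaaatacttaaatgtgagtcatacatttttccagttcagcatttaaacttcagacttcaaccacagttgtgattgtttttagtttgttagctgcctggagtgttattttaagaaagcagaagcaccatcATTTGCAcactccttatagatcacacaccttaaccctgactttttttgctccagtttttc
TENT5C: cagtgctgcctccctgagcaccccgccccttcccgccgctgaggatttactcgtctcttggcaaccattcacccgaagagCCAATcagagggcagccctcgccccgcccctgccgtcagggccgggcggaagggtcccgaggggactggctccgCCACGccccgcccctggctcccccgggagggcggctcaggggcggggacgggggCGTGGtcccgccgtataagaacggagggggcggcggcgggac
The table held 7 windows for 5 of the 6 members, each of 300 bases, with 250 before and 50 after the start; DERL3 had no entry. MZB1 carried CACGTG from base −117, inside 2 overlapping CCACG matches, 1 on each strand. FKBP11 carried CCACG from base −197 and, at a second start site, CACGTG from base 20 after the start. CACGTG was present in 2 of the 7 windows and in 7.26% of all 35116 promoter windows. JCHAIN carried TGCAAAT, the core of the octamer read by OCT factors, from base −60 on the opposite strand, which 4.2% of all windows hold. CCACG stood in 5 of the 7 windows against 38.1% of all, CCAAT in 2 against 34.6%, and GACGTGG in 0 against 3.13%. A match is a description of these letters and not a binding site.

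All 40 arrays looked alike in depth: between 35.3% and 46.9% of probes were detected on each, where detected means above the array's own background at a one-sided p of 0.01. After normalization the array median stood at 4.72 and the detection limit between 4.80 and 5.23 on the log2 scale. The B cell markers MS4A1, CD79A, CD79B, CD22, BLK and CD74 were detected in every line and treatment. SOX11, a mantle cell lymphoma marker, was detected on all 10 arrays of each line by 1 of its 2 probes. The single probe for CCND1, the cyclin D1 gene that defines this lymphoma, was detected on 10 of 10 GRANTA519 and MAVER1 arrays, 5 of 10 REC1 arrays and 0 of 10 JEKO1 arrays. Of 8 T and NK cell markers, only CD3D in REC1 and CD7 in JEKO1 with DMSO were detected on at least 3 of 5 arrays. Of 8 myeloid markers, CD14 and CD68 were detected by that rule in all lines, and ITGAM and LYZ only in some lines or treatments. Of 8 epithelial and stromal markers, PECAM1 was detected in every line and treatment. EPCAM, CDH1, COL1A1, KRT18 and KRT19 were detected in some of them.

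Under DMSO the 6 genes differed widely between the lines, and no line was high for all of them. JCHAIN had a log2 signal of 10.54 ± 0.22 in MAVER1 (SD over 5 times, here and for the other DMSO levels), 7.95 ± 0.79 in JEKO1 and 7.81 ± 0.16 in GRANTA519. In REC1 it lay at 4.47 ± 0.18 and was not detected on any of the 10 arrays of that line. MAVER1 thus stood above every other line, while JEKO1 and GRANTA519 did not differ beyond their spread (adjusted p = 0.645). The JEKO1 array at 4 h was low, at 6.61, against 8.03 to 8.69 at the other times.

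For MZB1 the order of the lines depended on the probe. The DMSO log2 signal of its brighter probe was 10.59 ± 0.10 in JEKO1, 10.24 ± 0.19 in MAVER1, 10.21 ± 0.13 in GRANTA519 and 10.20 ± 0.26 in REC1. By this probe JEKO1 stood above each of the others (adjusted p between 0.00136 and 0.00377), which did not pass the test among themselves. By the other MZB1 probe, also detected on all 40 arrays, MAVER1 exceeded REC1 by 0.76 (adjusted p = 8.57e-06 over all kept probes), the GRANTA519 minus MAVER1 difference was −0.68 (adjusted p = 3.93e-05), and JEKO1 minus MAVER1 was 0.03 (adjusted p = 0.880). FKBP11 followed another order, with 9.19 ± 0.38 in REC1, 8.49 ± 0.24 in JEKO1, 7.94 ± 0.19 in GRANTA519 and 7.70 ± 0.28 in MAVER1. All neighbours in that order differed except GRANTA519 and MAVER1 (adjusted p = 0.159).

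DERL3 was dim in every line, near the detection limit. The DMSO log2 signal of its brighter probe was 5.92 ± 0.27 in GRANTA519, 5.84 ± 0.44 in MAVER1, 5.49 ± 0.36 in JEKO1 and 5.23 ± 0.21 in REC1. No neighbours in that order differed beyond their spread. GRANTA519 exceeded REC1 by 0.68 (adjusted p = 0.00204) and JEKO1 by 0.42 (adjusted p = 0.0439), and MAVER1 exceeded REC1 by 0.61 (adjusted p = 0.00545). The other kept DERL3 probe did not pass the limma test between lines (adjusted p = 0.278 over all kept probes). By its brightest probe SDC1 was highest in GRANTA519 at 7.49 ± 0.31, followed by MAVER1 at 6.23 ± 0.36, JEKO1 at 5.74 ± 0.29 and REC1 at 5.35 ± 0.24. By that probe every pair of lines differed (largest adjusted p = 0.0245). The other kept SDC1 probe, near the detection limit, stood at 4.73 in GRANTA519, 5.31 in MAVER1, 5.03 in JEKO1 and 4.82 in REC1. It did not pass the limma test between lines (adjusted p = 0.140 over all kept probes). TENT5C was far higher in REC1, at 9.30 ± 0.35, than in JEKO1 at 6.62 ± 0.25, MAVER1 at 6.61 ± 0.41 or GRANTA519 at 6.13 ± 0.28. The MAVER1 minus REC1 difference was −2.69 on the log2 scale (adjusted p = 2.25e-11), and JEKO1 and MAVER1 did not differ (adjusted p = 0.976).

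By limma with Benjamini-Hochberg adjustment over all genes, 6 of 6 members differed between lines in DMSO, where 73.4% of all genes did. Between single pairs of lines, the share of all genes called was 53.8% for GRANTA519 and JEKO1, 46.4% for GRANTA519 and MAVER1, 53.8% for GRANTA519 and REC1, 46.7% for JEKO1 and MAVER1, 52.3% for JEKO1 and REC1 and 50.4% for MAVER1 and REC1. Since times stand in for replicates in that test, its p-values measure the spread between times, pooled over the lines, and not between cultures. None of the 6 passed the test between times in DMSO (0 of 6, limma, against 10.5% of all genes), although MZB1, SDC1, TENT5C and FKBP11 had unadjusted p-values of 0.0222, 0.0152, 0.0120 and 0.0283. In the contrast of 24 h with 2 h, TENT5C fell by 0.66 in DMSO alone (adjusted p = 0.0210), the only member among the 7.46% of genes called there. Without GRANTA519 its fall was −0.69 (adjusted p = 0.0883) and without MAVER1 −0.55 (adjusted p = 0.155).

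**Figure D1:**
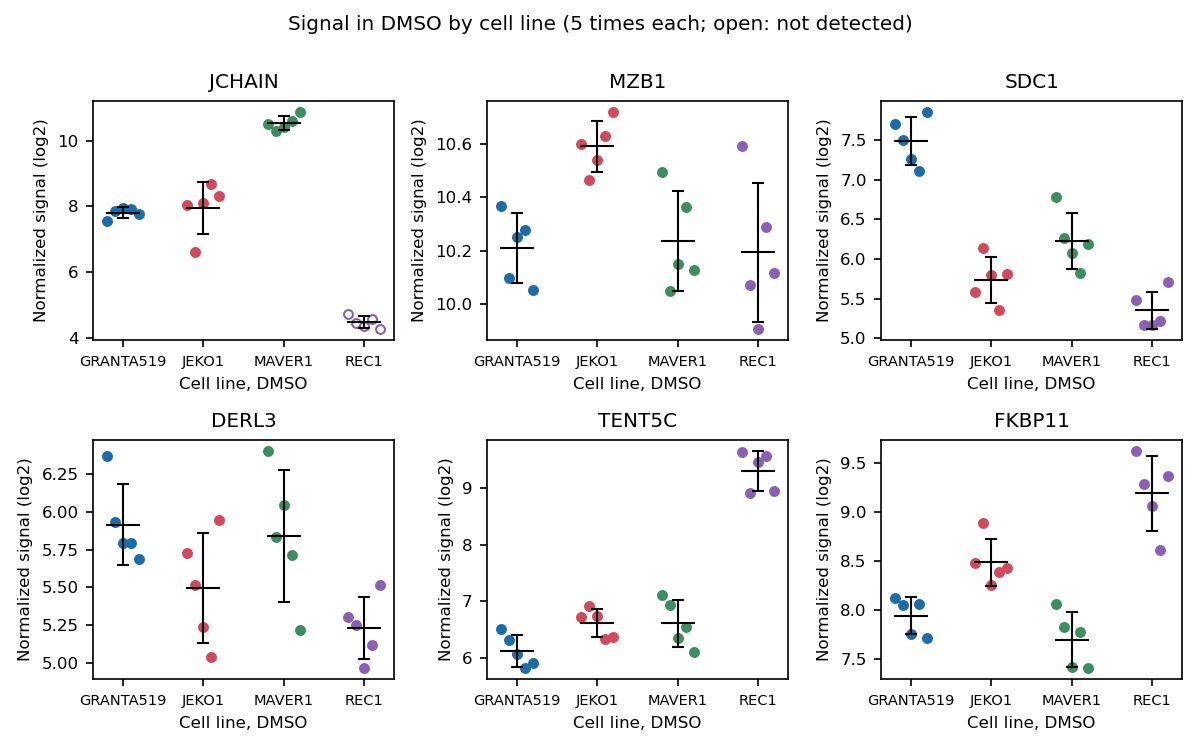
Normalized log2 signal of each gene in DMSO, by cell line, with 1 point for each of 5 times, the mean and the SD; open points were not detected. Each gene is shown by its kept probe with the highest mean. By these probes MAVER1 was highest for JCHAIN, GRANTA519 for SDC1 and REC1 for TENT5C and FKBP11, and JCHAIN was not detected in REC1.

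OTX015 lowered 4 of the 6 genes and raised 1 when the 5 times were averaged within each line and the 4 lines were compared. JCHAIN, MZB1, FKBP11 and DERL3 fell, TENT5C rose and SDC1 did not pass the test. In that comparison 28.9% of all genes were called, 14.5% higher and 14.4% lower. The median log2 change of the 6 genes was −0.47, beside 0.01 over all genes tested. These are bulk RNA samples, in which fewer cells of a type and less RNA per cell cannot be told apart.

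**Figure D2:**
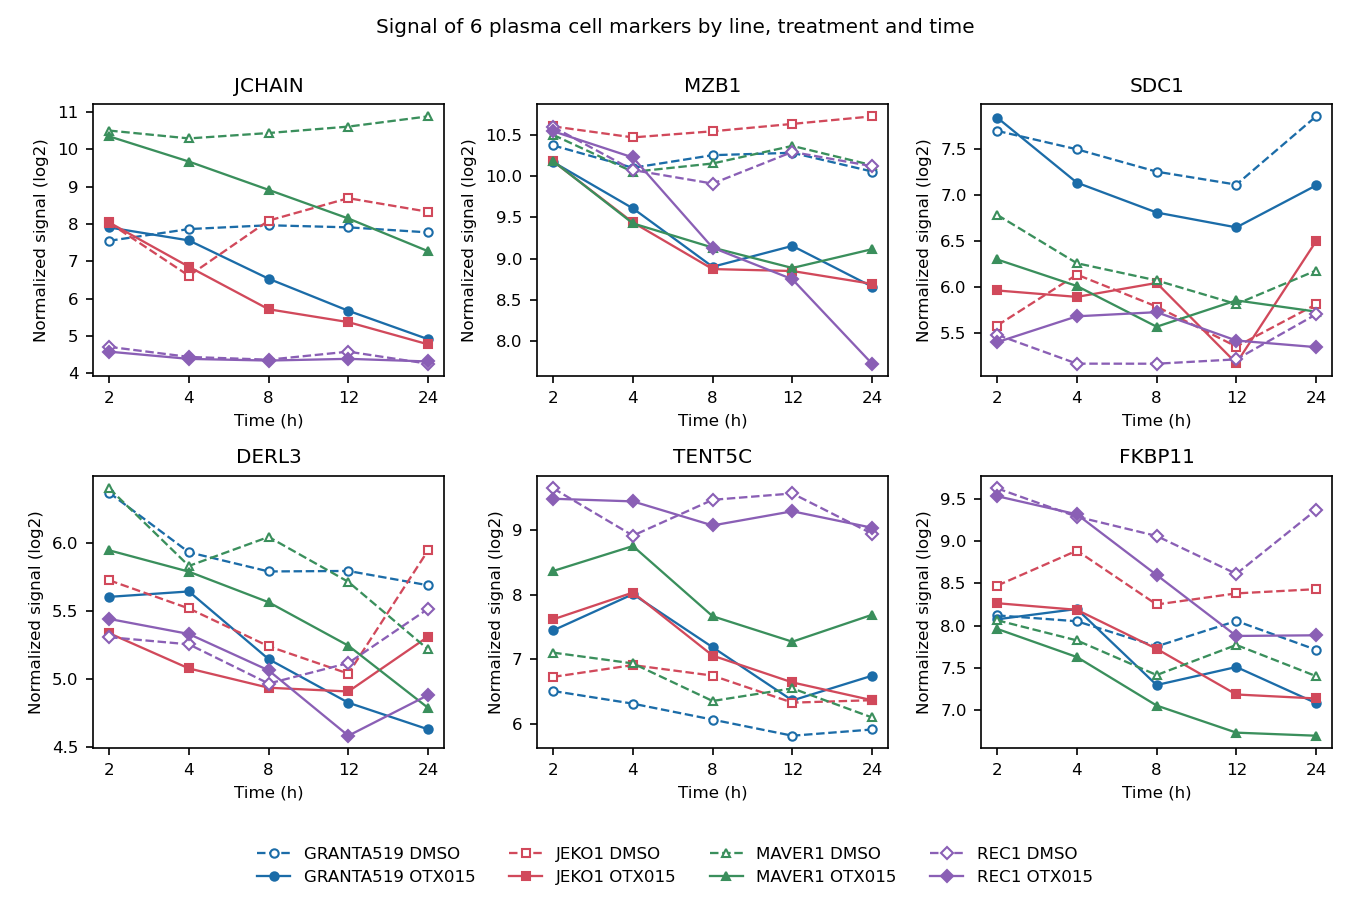
Normalized log2 signal of each gene against time in hours, with colours and symbols for the 4 lines, broken lines and open symbols for DMSO, and solid lines and filled symbols for OTX015. MZB1 under OTX015 lay at 9.15 or lower in all lines from 8 h on, while DMSO stayed at 9.91 or above.

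MZB1 passed the test as lower in each of the 4 lines, which no other member did. That test pooled the spread over times across the 4 lines, and REC1 alone had an SD of 1.06 over 5 times. Over 20 arrays per treatment the MZB1 log2 signal ran from 9.91 to 10.72 with DMSO (median 10.28). With OTX015 it ran from 7.73 to 10.54 (median 9.13). At 2 h the DMSO arrays gave 10.37 in GRANTA519, 10.60 in JEKO1, 10.50 in MAVER1 and 10.59 in REC1, and the OTX015 arrays 10.17, 10.18, 10.18 and 10.54 in that order. At 8 h the DMSO values, again in that order, were 10.25, 10.54, 10.15 and 9.91, and those with OTX015 were 8.90, 8.87, 9.13 and 9.13. The treatments overlapped at 2 and 4 h and no longer did at 8, 12 and 24 h.

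By 24 h MZB1 stood in DMSO at 10.05, 10.72, 10.13 and 10.12 in GRANTA519, JEKO1, MAVER1 and REC1, and with OTX015 at 8.66, 8.69, 9.11 and 7.73. REC1, the line in which JCHAIN was undetected, thus ended lowest. The mean difference over all times was −1.03 ± 0.24 on the log2 scale (SD, n = 4 lines; adjusted p = 0.00113), a 2.04-fold lower signal, and 19 of 20 pairs were lower with OTX015. The difference was −1.20 at 8 h (adjusted p = 0.000162), −1.48 at 12 h (adjusted p = 1.69e-05) and −1.71 at 24 h (adjusted p = 2.83e-06). At 4 h it was −0.50 (adjusted p = 0.0793).

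The second MZB1 probe also fell with OTX015. Its mean difference over all times was −1.36 (adjusted p = 0.000463 over all kept probes, of which 21.7% were called), and at 4 h it was already −1.22 (adjusted p = 0.000577, when 13.3% of kept probes were called). Across the 40 arrays the levels of both probes correlated with r = 0.82, and so did their 20 differences, r = 0.82. These correlations share arrays and lines and are a description.

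JCHAIN fell furthest, in the 3 lines that had it. With DMSO at 24 h its log2 signal was 7.77 in GRANTA519, 8.33 in JEKO1, 10.88 in MAVER1 and 4.26 in REC1. With OTX015 at 24 h the values were 4.91, 4.77, 7.27 and 4.32, of which only MAVER1 was still detected. Since the OTX015 arrays of GRANTA519 and JEKO1 were not above background, the difference there is a bound, at least 6.86-fold lower in GRANTA519 and at least 10.2-fold lower in JEKO1, from single arrays.

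In GRANTA519 and MAVER1 the JCHAIN difference was lower at each later time. In MAVER1 its signal with OTX015 went from 10.35 at 2 h through 9.67, 8.91 and 8.15 to 7.27 at 24 h, while DMSO stayed between 10.29 and 10.88. In GRANTA519 the OTX015 values were 7.91, 7.56, 6.53, 5.67 and 4.91 in order of time, beside DMSO values of 7.55, 7.86, 7.96, 7.91 and 7.77. In JEKO1 the OTX015 values were 8.04, 6.85, 5.71, 5.37 and 4.77, beside DMSO values of 8.03, 6.61, 8.09, 8.69 and 8.33, so that at 4 h both arms were low and OTX015 was higher by 0.24. The mean difference was 0.02 at 2 h, −0.18 at 4 h, −1.34 at 8 h (adjusted p = 0.0519) and −2.05 at 12 h (adjusted p = 0.00388). At 24 h it was −2.49 ± 1.73 (SD, n = 4, adjusted p = 0.000674). The SD over lines was smaller at 2 and 4 h, at 0.24 and 0.37. The p-values use 1 spread pooled over all 5 times, so they do not measure the SD at 24 h. With OTX015 at 24 h JCHAIN was detected on 1 of 4 arrays, and in REC1 both arms were at background at every time, so the 24 h mean and SD include values that were not above background.

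Over all times the JCHAIN difference was −1.21 ± 0.79 (SD, n = 4; adjusted p = 0.0166), with 16 of 20 pairs lower, and without REC1, where both arms were at background, it was −1.59 (adjusted p = 0.00153). The call was lost without GRANTA519 (−1.18, adjusted p = 0.0665), without JEKO1 (−1.01, adjusted p = 0.0580) and without MAVER1 (−1.05, adjusted p = 0.0730), and the 12 h call without GRANTA519 (−1.99, adjusted p = 0.0516) or JEKO1 (−1.63, adjusted p = 0.0505). JCHAIN is read by a single probe.

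FKBP11 was called lower at 8, 12 and 24 h. At 4 h its log2 signal was 8.05, 8.89, 7.83 and 9.29 in GRANTA519, JEKO1, MAVER1 and REC1 with DMSO, and 8.20, 8.19, 7.63 and 9.32 with OTX015. At 24 h the DMSO values were 7.72, 8.43, 7.40 and 9.37, and those with OTX015 were 7.09, 7.14, 6.70 and 7.89. At 24 h every line was lower with OTX015, although the ranges of the treatments overlapped because the lines start from different levels. The mean difference was −0.45 ± 0.07 at 8 h (adjusted p = 0.0275), −0.88 ± 0.29 at 12 h (adjusted p = 0.000160) and −1.03 ± 0.42 at 24 h (adjusted p = 2.65e-05; SD, n = 4 lines each).

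Over all times FKBP11 fell by 0.53 on the log2 scale (SD 0.20, n = 4; adjusted p = 0.00566), with 18 of 20 pairs lower. The 8 h call did not hold without any single line (adjusted p between 0.0565 and 0.0915, differences between −0.43 and −0.48), whereas those at 12 and 24 h did. The probe lies in a gene whose RefSeq span overlaps 1 other gene.

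DERL3 fell slightly, from a level already close to background. With DMSO its brighter probe was detected on all 20 arrays, with a log2 signal from 4.97 to 6.40 (median 5.70), and with OTX015 on 14 of 20, from 4.58 to 5.95 (median 5.20). In GRANTA519 the DMSO values were 6.37, 5.93, 5.79, 5.80 and 5.69 in order of time, and those with OTX015 were 5.60, 5.64, 5.15, 4.82 and 4.63, without overlap. In REC1 the OTX015 array was above its DMSO array at 2, 4 and 8 h and below it at 12 and 24 h. The mean difference over all times was −0.42 ± 0.24 (SD, n = 4; adjusted p = 0.0196), −0.53 at 12 h (adjusted p = 0.0157) and −0.69 at 24 h (adjusted p = 0.00207). With OTX015 this probe was detected on 4 of 4 arrays at 2, 4 and 8 h but on 1 of 4 at 12 h and 1 of 4 at 24 h, so these later differences include values that were not above background. As bounds from single arrays, DERL3 was at least 1.79-fold lower at 12 h and at least 1.62-fold lower at 24 h in GRANTA519, at least 1.20-fold lower at 24 h in MAVER1, and at least 1.09-fold and 1.52-fold lower at 12 and 24 h in REC1, while JEKO1 gave no bound at 12 h.

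The other kept DERL3 probe was detected on 12 of 40 arrays and did not pass the test, with −0.13 over all times (adjusted p = 0.380 over all kept probes). The levels of the 2 probes correlated with r = 0.41 across 40 arrays. The call over all times was lost without GRANTA519 (−0.31, adjusted p = 0.0535) and without MAVER1 (−0.43, adjusted p = 0.0647), as was the 12 h call (−0.38, adjusted p = 0.113, and −0.55, adjusted p = 0.0727).

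SDC1, the surface marker, showed no common direction. At 24 h its log2 signal with DMSO was 7.86, 5.82, 6.18 and 5.71 in GRANTA519, JEKO1, MAVER1 and REC1, and with OTX015 7.11, 6.50, 5.74 and 5.35. It was thus higher with OTX015 in JEKO1 and lower in the other lines. The mean difference over all times was −0.09 ± 0.30 (SD, n = 4; 95% interval −0.36 to 0.19; adjusted p = 0.618), and 12 of 20 pairs were lower. GRANTA519, the line with most SDC1 by the brightest probe, had a mean of −0.38 (adjusted p = 0.0670). That difference passed the test without background correction (−0.24, adjusted p = 0.0170), with an offset of 50 (−0.30, adjusted p = 0.0258) and with the authors' normalized values (−0.23, adjusted p = 0.0216), and did not with the mean of all probes (−0.09, adjusted p = 0.681).

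The SDC1 probes did not track each other. The brightest was detected on 39 of 40 arrays, the next on 20 and the third on 0, and the 2 kept probes correlated with r = −0.21 in level and −0.03 in difference. The less bright of them had a mean difference of −0.01 (adjusted p = 0.976 over all kept probes). A change of the size seen for MZB1 lies outside the interval of the brighter probe. With DMSO that probe stood at 5.35 in REC1 and 5.74 in JEKO1, near the detection limit, which leaves little room for a fall. The interval therefore cannot exclude such a change in those lines.

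TENT5C went the other way and peaked early. At 4 h its log2 signal with DMSO was 6.32 in GRANTA519, 6.91 in JEKO1, 6.94 in MAVER1 and 8.91 in REC1. With OTX015 at 4 h it was 8.01, 8.03, 8.75 and 9.44 in the same order. All 4 lines were higher with OTX015, and REC1, where DMSO was already high, had the smallest difference. The mean difference was 0.73 at 2 h (adjusted p = 0.126), 1.29 ± 0.59 at 4 h (SD, n = 4; adjusted p = 0.00321), 0.58 at 8 h, 0.33 at 12 h and 0.63 at 24 h (adjusted p = 0.126).

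At 24 h TENT5C stood in DMSO at 5.92, 6.37, 6.10 and 8.94 in GRANTA519, JEKO1, MAVER1 and REC1, and with OTX015 at 6.75, 6.37, 7.69 and 9.03. JEKO1 had returned to its DMSO level while MAVER1 had not. Over all times the difference was 0.71 ± 0.60 (SD, n = 4; adjusted p = 0.0430), with 16 of 20 pairs higher. That call was lost without GRANTA519 (0.61, adjusted p = 0.153), without JEKO1 (0.77, adjusted p = 0.0817) and without MAVER1 (0.50, adjusted p = 0.140), and the 4 h call without GRANTA519 (1.15, adjusted p = 0.0512).

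**Figure D3:**
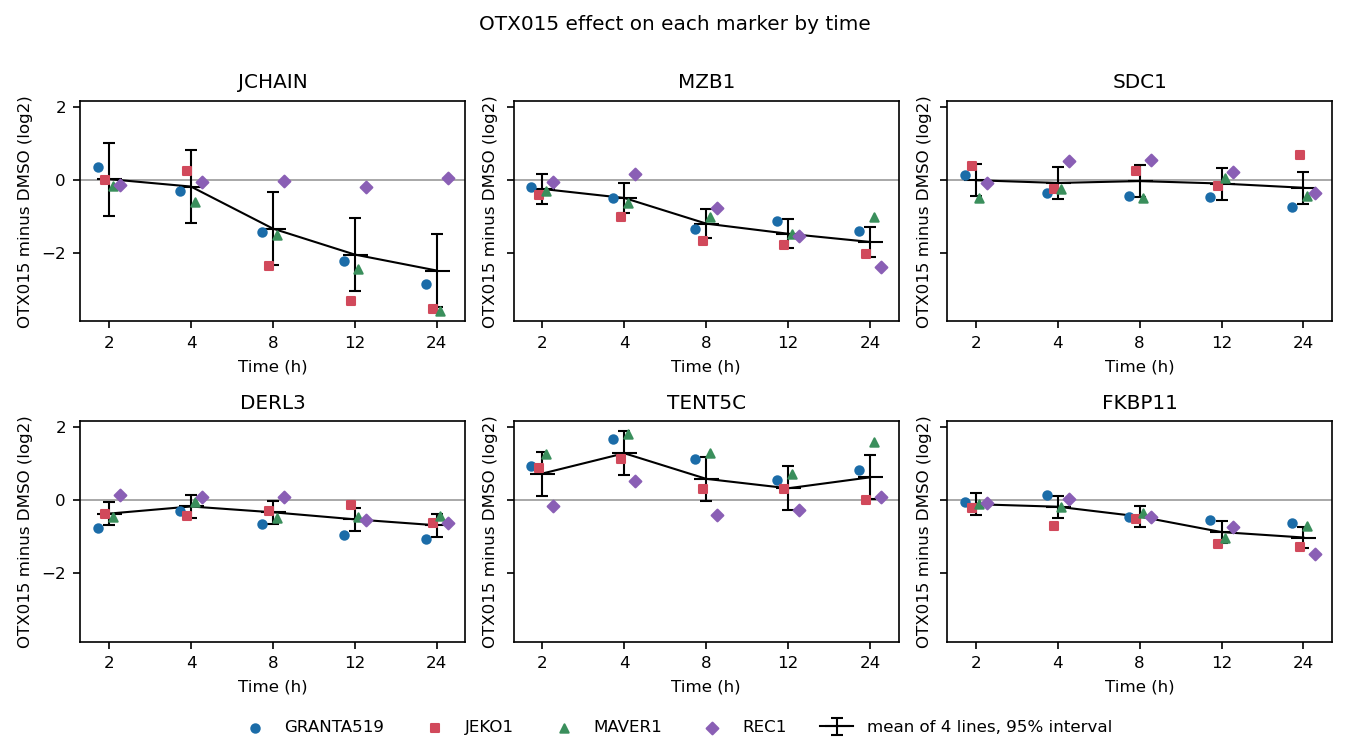
OTX015 minus DMSO on the log2 scale against time in hours, with 1 point per line, the mean of 4 lines and its 95% interval. The interval uses the spread pooled over all times, so for each gene its width is the same at every time. It does not measure the spread of the 4 lines at a single time. JCHAIN, MZB1 and FKBP11 were lowest at 24 h, at −2.49, −1.71 and −1.03, and TENT5C was highest at 4 h, at 1.29.

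The number of members called grew with time. It was 0 of 6 at 2 h by limma, with DERL3 and TENT5C at unadjusted p-values of 0.0242 and 0.0202, when 9.79% of all genes were called. It was 1 at 4 h (TENT5C), against 20% of genes, and 2 at 8 h (MZB1 and FKBP11), against 21.7%. At 12 and 24 h JCHAIN, MZB1, DERL3 and FKBP11 were called, 4 of 6 at each time, against 22.5% and 24.6% of genes.

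The effect itself differed between times for 4 members, JCHAIN (adjusted p = 0.00743), MZB1 (adjusted p = 0.00244), FKBP11 (adjusted p = 0.00355) and TENT5C (adjusted p = 0.0154), where 11.4% of genes passed this F test. Between 2 and 24 h the difference moved by −2.51 for JCHAIN (adjusted p = 0.00377), −1.46 for MZB1 (adjusted p = 0.00107) and −0.91 for FKBP11 (adjusted p = 0.00216), 3 of 6 members where 11.5% of genes were called. Without GRANTA519 or MAVER1 the JCHAIN contrast was −2.28 (adjusted p = 0.0729) or −2.20 (adjusted p = 0.0630).

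Taken line by line, JEKO1 had most members called and REC1 fewest. In JEKO1, 5 of 6 passed, where 24.3% of genes did: JCHAIN (−1.80), MZB1 (−1.38), FKBP11 (−0.78) and DERL3 (−0.38) fell and TENT5C rose by 0.53. In MAVER1, 4 passed against 22% of genes, with JCHAIN at −1.67, MZB1 at −0.89, DERL3 at −0.38 and TENT5C at 1.34. In GRANTA519, 3 passed against 24.3% of genes, with MZB1 at −0.91, DERL3 at −0.75 and TENT5C at 1.02, while JCHAIN had −1.29 (adjusted p = 0.0723). In REC1 only MZB1 passed, at −0.92 (adjusted p = 0.0288), where 15.5% of genes were called, and FKBP11 stood at −0.55 (adjusted p = 0.0514).

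These p-values measure the spread over times, pooled across the 4 lines, and not over cultures. For MZB1 the SD over 5 times was 1.06 in REC1 and 0.44 to 0.65 in the other lines. Without the 24 h arrays MZB1 in REC1 was −0.55 (adjusted p = 0.217), JCHAIN was −1.36 in JEKO1 (adjusted p = 0.0597) and −1.19 in MAVER1 (adjusted p = 0.112), and DERL3 was −0.32 in JEKO1 (adjusted p = 0.0986) and −0.36 in MAVER1 (adjusted p = 0.0671). Only for TENT5C did the effect itself differ between lines (adjusted p = 0.000154, with 9.73% of genes called), from 1.34 in MAVER1 to −0.04 in REC1. JCHAIN came close to the threshold of that test (adjusted p = 0.0501).

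**Figure D4:**
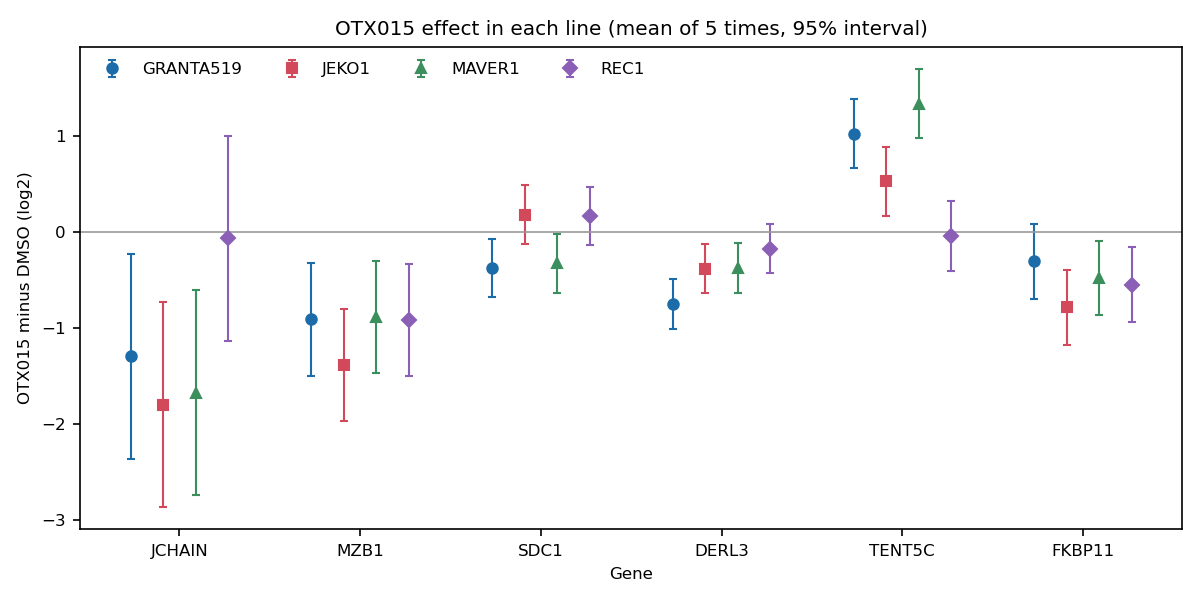
OTX015 minus DMSO on the log2 scale for each gene and line, as the mean of 5 times with its 95% interval. The interval uses the spread over times pooled across the 4 lines. MZB1 was between −0.89 and −1.38 in all 4 lines, whereas TENT5C ranged from −0.04 in REC1 to 1.34 in MAVER1.

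Among the members, MZB1 and FKBP11 moved most alike under OTX015. Their 20 differences correlated with r = 0.91, while JCHAIN correlated with MZB1 at r = 0.54 and TENT5C with SDC1 at r = −0.56. Over all 13746 genes, MZB1 ranked second in likeness to FKBP11, between FCRLA (r = 0.91) and UROD (r = 0.91), an enzyme of haem synthesis. For MZB1 itself the differences most alike were those of ADAP1 (r = 0.93), CASP1 (r = 0.92) and ALOX5AP (r = 0.91). For JCHAIN they were TYROBP (r = 0.95), an immune signalling adaptor, SH3TC1 (r = 0.93) and ISG20 (r = 0.93), an exonuclease. For TENT5C they were GFOD1 (r = 0.82), ZFYVE21 and PPP1R13B (both r = 0.80), for DERL3 EFNA1 (r = 0.76), ENO1 and PRELID1 (both r = 0.74), and for SDC1 ADGRG6 (r = 0.77), KANK1 (r = 0.76) and LGALS9C (r = 0.72).

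In level over the 40 arrays, the genes most like each member were mostly others. JCHAIN was closest to TYROBP (r = 0.96), ISG20 (r = 0.96) and GPX7 (r = 0.95). MZB1 was closest to FCMR (r = 0.92), the IgM Fc receptor gene, SLC2A5 (r = 0.90) and ZNF358 (r = 0.88), and FKBP11 to SNHG15 (r = 0.93), MATK (r = 0.91) and METTL22 (r = 0.89). SDC1 was closest to IL15 (r = 0.92), BIK and TCEAL3 (both r = 0.91), TENT5C to KPNA4 (r = 0.89), GRN (r = 0.89) and SNHG7 (r = 0.88), and DERL3 to FERMT3, MAPK13 (both r = 0.78) and STOML2 (r = 0.77). All these values share the 4 lines and, for differences, the DMSO arrays within each pair, and they are descriptions.

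Regulators of the plasma cell programme were called in both directions. Of 9 measured, 3 fell, 1 rose and 5 did not pass, with a median of −0.01. For this and the following lists over all times, the share of all genes called was 28.9%, with 14.5% higher and 14.4% lower, and the median over all genes was 0.01. POU2AF1, a coactivator of OCT factors, fell by 0.88 (SD 0.33, n = 4; adjusted p = 0.00324). PRDM1 (Blimp-1), which drives plasma cell differentiation, fell by 0.83 (SD 0.58; adjusted p = 0.0232) and was detected on 13 of 20 DMSO arrays and 3 of 20 OTX015 arrays. ELL2, an elongation factor that favours secreted antibody mRNA, rose by 0.80 (SD 0.33; adjusted p = 0.00463), while IRF4 had 0.20 ± 0.16 (adjusted p = 0.110).

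XBP1, the transcription factor that expands the ER in plasma cells, fell by 0.43 over all times (SD 0.15, n = 4; adjusted p = 0.00771). It was −0.24 at 2 h (adjusted p = 0.293) and −0.59 at 24 h (adjusted p = 0.00232). In its list of unfolded protein response factors, 1 of 10 fell, 1 rose and 8 did not pass, with a median of 0.01. The rise was that of PPP1R15A, a phosphatase subunit that restores translation after stress, at 0.44 ± 0.36 (adjusted p = 0.0483).

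Among ER chaperones and disulfide enzymes, genes called lower were more numerous at late times. Over all times 5 of 21 fell, 0 rose and the median was −0.10. At 2 h 2 rose and 0 fell, with a median of 0.03, when 9.79% of all genes were called. At 4 h 5 rose and 0 fell, with a median of 0.22, when 20% of all genes were called. At 24 h 10 fell and 0 rose, with a median of −0.30, when 24.6% of all genes were called. HSPA5 (BiP), the main ER chaperone, rose by 0.47 at 2 h (adjusted p = 0.0195) and fell by 0.72 at 24 h (SD 0.21, n = 4; adjusted p = 0.000217). SDF2L1, which works with HSPA5, was −0.12 at 2 h (adjusted p = 0.718) and −0.72 at 24 h (SD 0.35; adjusted p = 0.00137).

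Around DERL3, most genes of ER-associated degradation did not pass the test. Of 18 measured, 4 rose, 1 fell and 13 did not pass, near the 28.9% of all genes called, with a median of 0.08. VCP, the ATPase that pulls proteins from the ER membrane, rose by 0.45 (SD 0.03, n = 4; adjusted p = 0.00249), and NGLY1, which strips their glycans, by 0.41 (SD 0.18; adjusted p = 0.0109). UBE2J1, an ER-bound ubiquitin-conjugating enzyme, fell by 1.03 (SD 0.24; adjusted p = 0.00109).

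The steps on either side of folding had medians close to 0. Of 25 genes for signal peptide recognition and translocation, 3 rose, 5 fell and 17 did not pass, against 28.9% of all genes called, with a median of −0.02: RRBP1 rose by 0.69 (SD 0.24, n = 4) and TRAM2 by 0.43 (SD 0.22), while SRPRB fell by 0.42 (SD 0.07) and SEC62 by 0.42 (SD 0.15). Of 18 genes for ER to Golgi transport, 1 rose (SEC16A, 0.30), 1 fell (KDELR1, −0.36), and the median was 0.02.

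The relatives of FKBP11 and TENT5C were also followed. Of 9 other FK506-binding proteins 2 rose, 0 fell and the median was 0.03, with FKBP5 the larger rise at 0.29 (SD 0.13, n = 4; adjusted p = 0.0248). At 24 h 1 of the 9 fell, FKBP4 by 0.74 (adjusted p = 0.000371), beside −1.03 for FKBP11. Of 5 other TENT poly(A) polymerases 2 rose, with TENT4B at 0.86 (SD 0.29; adjusted p = 0.00255), and the median was 0.18. Among 16 genes of heparan sulfate synthesis and syndecan function, which build or bind the sugar chains of SDC1, 6 rose and 2 fell, against 28.9% of all genes called, with a median of 0.02. GLCE, the epimerase of these chains, rose by 1.21 (SD 0.72; adjusted p = 0.0125) and was detected on 27 of 40 arrays, and NDST1, a sulfotransferase, fell by 0.66 (SD 0.17; adjusted p = 0.00219).

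Genes of B cell identity also fell: 6 of 6 measured fell, where 14.4% of all genes did, with a median of −0.56, from BLK, a B cell kinase, at −1.19 (SD 0.35, n = 4; adjusted p = 0.00157) to CD74 at −0.26. Of 17 genes on the immunoglobulin list, only 2 matched the symbol of a probe, IGLL1, a surrogate light chain gene, and PIGR, an immunoglobulin receptor gene. No antibody chain gene of that list was therefore among the genes measured. Probes without a symbol, 17110 of 47231, were not searched for them. IGLL1 fell in all 4 lines, with differences from −2.11 to −0.31 (adjusted p = 0.0317), and PIGR did not pass the test. Of 3 mantle cell lymphoma genes measured, SOX11 rose by 0.44 (SD 0.18, adjusted p = 0.00896). CCND1 and CD5 did not pass the test, and the median of that list was −0.34. Over all times none of 5 T and NK cell genes or 4 myeloid genes measured passed the test by limma (0 in each list, also at an unadjusted p of 0.05, with smallest p-values of 0.0708 and 0.0772), nor did any at a single time. Within single lines 3 of them fell, CD7 by 0.39 in JEKO1 (adjusted p = 0.0200), CD3D at −0.94 in REC1 (adjusted p = 0.000556) and ITGAM at −1.13 in GRANTA519 (adjusted p = 0.000653). The summed signal of the T and NK list ran from 116 to 1332 with DMSO and from 114 to 1224 with OTX015, and CD3E, CD3G and KLRD1 were not measured above background. The summed signal of the myeloid list ran from 434 to 963 and from 428 to 832, with CSF1R, MPO, S100A8 and S100A9 not measured above background. Of 6 epithelial and stromal genes measured 2 fell, PECAM1, also present on blood cells, by 1.30 and EPCAM by 0.65. The summed signal of that list ran from 230.4 to 639 with DMSO and from 136 to 577 with OTX015, with KRT8 and COL1A2 not measured above background. The part of these genes in the changes of the members was not tested.

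**Figure D5:**
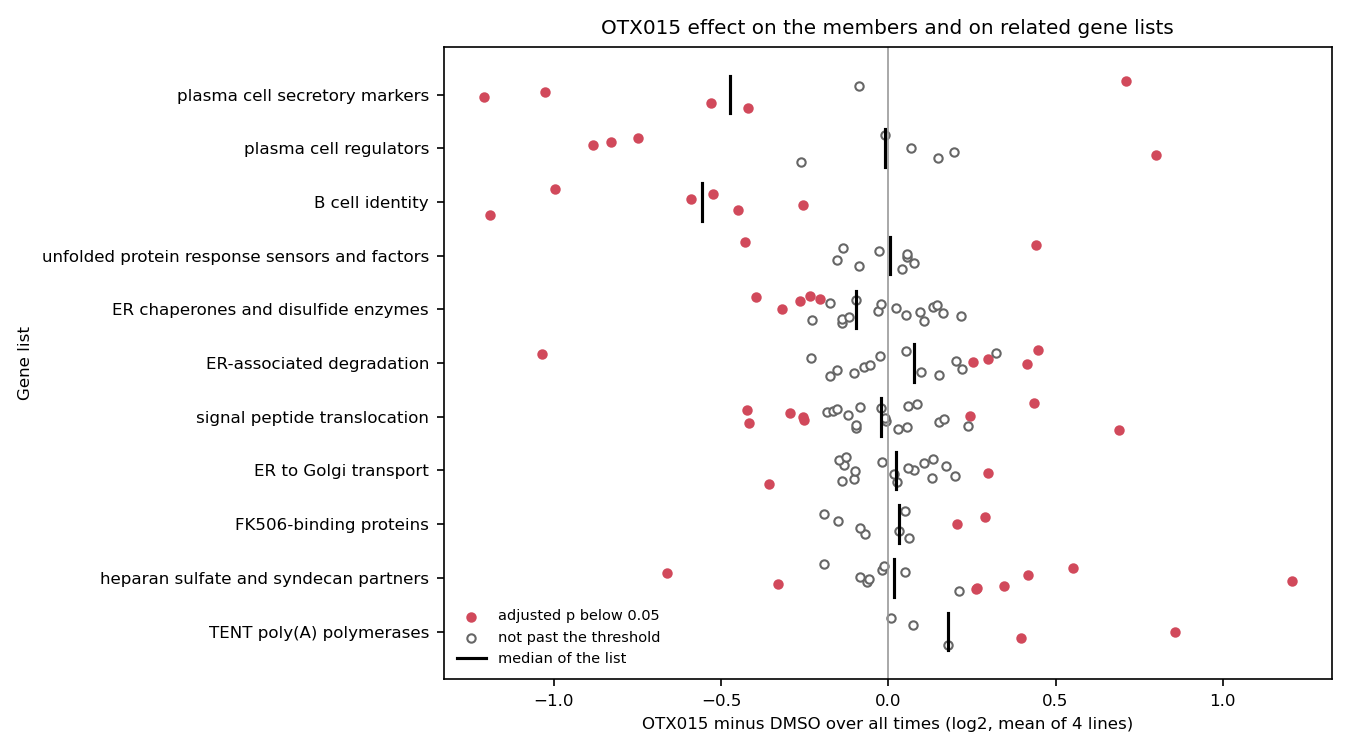
OTX015 minus DMSO over all times on the log2 scale (mean of 4 lines) for each measured gene of the 6 markers and 10 related lists, with filled points below an adjusted p of 0.05 and bars at the medians. The medians of the markers and of B cell identity were −0.47 and −0.56, and those of the other lists drawn lay between −0.10 and 0.18. The lists not drawn had medians of −0.67 (immunoglobulin), −0.34 (mantle cell lymphoma), −0.22 (epithelial and stromal), −0.08 (T and NK) and 0.04 (myeloid).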

How the data were processed

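The deposited table of the whole series holds the intensity of each probe on 40 single-colour Illumina arrays, exported by the authors from GenomeStudio without normalization, per the file headers and the submitters' processing notes; TRIzol RNA with an integrity number above 8 was labelled with biotin, per the labels' protocols. The authors' deposited normalized values, on a log2 scale with a normalization not given in the sources used here, served as an alternative, and each of their 40 columns correlated best with its own array. No detection p-values or control probes were used. On each array the background was taken as the mode of the log2 intensities and its spread from the intensities below the mode; normexp correction at these values, an offset of 16, quantile normalization and log2 followed (limma 3.58.1, R 4.3.3).

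Probes detected at a one-sided p of 0.01 on at least 4 of 40 arrays were kept (27197 of 47231), and a gene was represented by its kept probe with the highest mean. Of the probes, 30113 had 1 symbol, 8 several and 17110 none, and 30074 symbols were updated through RefSeq. Raw medians were 95.6 to 126 per array; the number of arrays limits the precision. Differences of OTX015 and DMSO arrays of the same line and time were tested with lmFit and eBayes (two-sided, Benjamini-Hochberg over all genes, threshold 0.05): over the 4 line means, per time, per line, and by F tests between lines and between times. Pairing follows from the line and time given in the labels. Deviations of paired arrays from their group means correlated at r = 0.756 to 0.886 over 20 pairs. Arrays of the same line are alike at any time, so these values do not test the pairing by time. The fits were tested on simulated data. Alternatives varied the background, offset, filter, probe choice, lines, pairing and times. Named genes were the members, the 3 genes most like each in level and in difference, and XBP1, PRDM1 and IRF4. The largest called rise and fall of each list were named too. For ER-associated degradation, ER chaperones, signal peptide translocation and ER to Golgi transport, up to 2 of each were named. CD74, EPCAM, FKBP4, PIGR and the marker genes were named after their values were seen. The members and lists were chosen with earlier results of these data known. Promoter sequences are from RefSeq (GRCh38.p14).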

Additional observations from a re-analysis of the deposited data

Results flagged for a closer look

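The OTX015 effect differed between times for JCHAIN (adjusted p = 0.00743), MZB1 (adjusted p = 0.00244), TENT5C (adjusted p = 0.0154) and FKBP11 (adjusted p = 0.00355), each by limma's F test over 20 differences with line as a term. It differed between the 4 lines for TENT5C (adjusted p = 0.000154), which rose in 3 lines and stood at −0.04 in REC1.

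Single arrays stood apart in 2 of the 54 groups of differences examined (30 by time, 24 by line), and chance flags about 1 in 20 such groups. For SDC1 at 4 h, REC1 had an OTX015 minus DMSO difference of 0.514 on the log2 scale, while the other lines were below 0. For DERL3 in MAVER1, the difference at 4 h was −0.0424, nearer to 0 than at the other times.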

How the results depend on the processing

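Of 783 alternative values for single members and comparisons, 711 kept their side of the threshold, 44 lost a call and 26 gained one. In 2 a called value changed sign. Changes of sign without a call are among the 711, so direction was not always kept. For SDC1 in GRANTA519 the values ran from −0.38 to 0.19. The cause of a change was not tested unless named. The block by line mattered most. With no replicate block, JCHAIN (−1.21, adjusted p = 0.232), TENT5C (0.71, adjusted p = 0.199) and FKBP11 (−0.53, adjusted p = 0.0632) lost their call over all times. MZB1 (adjusted p = 1.62e-07) and DERL3 (adjusted p = 0.00557) were still called. By construction that fit adds the spread between lines. It also counts the times of a line as separate replicates, whereas the main test over all times used line means. The p-values of MZB1 and DERL3, smaller there than with the block, therefore do not show a firmer result. The members called without the block were 2 over all times, 0 at 4 h, 1 at 8 h, 1 at 12 h, 1 at 24 h, 3 in JEKO1, 2 in MAVER1, 0 in REC1, 0 between lines, 1 between times, 1 for 24 h minus 2 h and 0 for DMSO 24 h minus 2 h. Genes called over all times were 2413 without the block, against 3975 with it. Where no such count over all genes is given, here and below, a change in members called cannot be told apart from a change in calls over all genes.

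Leaving out each line in turn gave ranges over all times of −1.59 to −1.01 for JCHAIN, −1.07 to −0.91 for MZB1, −0.18 to 0.01 for SDC1, −0.50 to −0.31 for DERL3, 0.50 to 0.96 for TENT5C and −0.60 to −0.44 for FKBP11. Members called were then 2 to 5 over all times, 0 to 1 at 2 h, 0 to 2 at 4 h, 1 to 3 at 8 h, 2 to 4 at 12 h, 4 to 5 at 24 h, 1 to 2 in REC1, 1 to 2 for the effect between lines, 2 to 3 between times, 0 to 1 for DMSO between times and 0 to 1 for DMSO 24 h minus 2 h. Genes called over all times ranged from 2419 to 3299.

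TENT5C over all times lost its call without background correction (0.44, adjusted p = 0.0584), with the authors' normalized values (0.41, adjusted p = 0.0569) and without the detection filter (0.71, adjusted p = 0.0997, more genes tested). DERL3 lost it with the mean of all probes (−0.28, adjusted p = 0.0504) and with its other probe, an alternative chosen after seeing the data (−0.13, adjusted p = 0.350); with that probe its sign turned at 12 h (0.17) and in JEKO1 (0.17). Requiring detection on all 40 arrays left JCHAIN, SDC1 and DERL3 untested, so that 3 members were called over all times, 2 at 4 h, 2 at 12 h, 2 at 24 h, 3 in JEKO1, 2 in REC1, 3 between lines in DMSO and 1 between times in DMSO.

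At 4 h, 2 members were called without background correction, with the authors' values, with the mean of all probes, with the other probe and without the 24 h arrays. JEKO1 had 3 without background correction and 3 without the 24 h arrays, and MAVER1 had 2 without the 24 h arrays. REC1 had 2 without background correction, with an offset of 50, with the authors' values and with the mean of all probes, and 0 without the detection filter or without the 24 h arrays. The effect between lines gave 2 without background correction, with an offset of 50, with the authors' values and with the mean of all probes. DMSO between times gave 1 without background correction, with an offset of 50, with the authors' values and without the 24 h arrays. Signals near background limit DERL3 and SDC1.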
